A study of Mus musculus with 4 samples.

Results

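The mRNAs of 10 enzymes of glycolysis were followed in cultured satellite cells, the stem cells of muscle (MuSC), with and without Prmt5. The genes were Hk1, Hk2, Gpi1, Pfkm, Aldoa, Gapdh, Pgk1, Eno1, Pkm and Ldha, chosen as the general enzymes from hexokinase to lactate dehydrogenase, and they are 10 of the 20065 genes in the deposited table. All 10 were among the 16212 genes with enough reads to be tested. The 2 control libraries came from Pax7CreERT2/Prmt5+/loxP cells and the 2 Prmt5sKO libraries from Pax7CreERT2/Prmt5loxP/loxP cells, all from limb and trunk muscles of adult C57BL/6 mice and all given TAM by their labels. According to the study, the drug was given in culture, as the hydroxylated active form of tamoxifen. The control cells therefore also carried the Pax7-driven inducible Cre and 1 floxed allele of Prmt5, and deletion takes place only in cells that express Pax7 when the drug is given. RNA was sequenced on the Ion Torrent Proton after removal of ribosomal RNA. Nothing in the labels says whether the 2 libraries of a group came from separate animals, so the errors below measure the spread between libraries.

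Glycolysis splits glucose into pyruvate and yields ATP without oxygen. Hexokinase traps glucose as glucose 6-phosphate, phosphofructokinase commits it to the pathway, aldolase splits the 6-carbon sugar, and glyceraldehyde 3-phosphate dehydrogenase to pyruvate kinase carry its products to pyruvate, which lactate dehydrogenase turns into lactate. Most steps have isozymes from separate genes, and muscle fibres are known for their own forms, such as Pfkm, Pgam2 and Eno3. Proliferating cells commonly run this pathway at a high rate, and Prmt5 is a methyltransferase that sets symmetric dimethyl marks on arginines.

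Whole reads per library were solved from the deposited group means and scaled by the trimmed mean of M-values (TMM), which gives the normalized counts used here. The libraries held between 13240754 and 20047430 counts. Since no column names a replicate, the 2 libraries of each group are told apart by depth as deeper and shallower, and pairs of values give the deeper one first. Prmt5 itself had 2273 and 2906 normalized counts in the controls and 244 and 202 in the Prmt5sKO libraries, which is the order the labels give. The shallower Prmt5sKO library stood apart in muscle differentiation. The 20 differentiation genes, Myog, Myh3 and Acta1 among them, summed to 506265 normalized counts there and to 64723 in the deeper Prmt5sKO library. The controls held 65687 and 108273. All 20 were higher in the shallower than in the deeper Prmt5sKO library. Of these sums, Ttn alone gave 39149 and 90033 in the controls and 28428 and 171011 in the Prmt5sKO libraries. Gene by gene, 14 of the 20 were higher in Prmt5sKO without overlap (25.2% of all genes), 0 were lower (23.6%) and 6 overlapped. Their median log2 fold change was 2.72. Myog had 3707 in the deeper Prmt5sKO library against 1436 and 1189 in the controls, and Acta1 4951 against 2366 and 1001. The summed level of 5 proliferation genes (Mki67, Top2a, Ccnb1, Cdk1 and Mcm2) was 26169 and 30639 in the controls and 13542 and 13247 in the Prmt5sKO libraries. All 5 were lower without overlap, as 23.6% of all genes tested were. The 6 myogenic genes were present in every library (Pax7 lowest at 2570 and highest at 3664). Endothelial markers summed to between 56.3 and 163 normalized counts, blood markers to between 65.9 and 126 and fibro-adipogenic markers to between 61.5 and 215. Their most read genes were Dcn (115 in the shallower control) and Cd68 (112 in the same library), while Cdh5, Itgam and Fabp4 were at 0 in at least 1 library.

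The sequences of a few stretches bear on what follows. The first shows why reads of Gapdh are hard to place. This stretch of its coding sequence, read from base 407 on (GRCm38, chr6:125162896-125162955, minus strand), is shown because exact copies of its 60 bases lie in 69 other annotated genes, of which 59 have a row in the deposited table.

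Gapdh coding stretch: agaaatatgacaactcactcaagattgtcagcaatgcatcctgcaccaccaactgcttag

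The other stretches are the 250 bases before the RefSeq start of Hk2 and of Ldha (GRCm38.p6). They are shown because Hk2 had the smallest p of the 10 genes and Ldha the most matches to ACGTG, the core of the hypoxia response element, counted on both strands. Matches are in capitals. The palindrome CACGTG, the canonical E-box, holds ACGTG on both strands. The Hk2 stretch is chr6:82774455-82774704 on the minus strand, and the Ldha stretch is chr7:46845554-46845803 on the plus strand, inside the span that GENCODE gives the Ldha gene.

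Hk2 upstream: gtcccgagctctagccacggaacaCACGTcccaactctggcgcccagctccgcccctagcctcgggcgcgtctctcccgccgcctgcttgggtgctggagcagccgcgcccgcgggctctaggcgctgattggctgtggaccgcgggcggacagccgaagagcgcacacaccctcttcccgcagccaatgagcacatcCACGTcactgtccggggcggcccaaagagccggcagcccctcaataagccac

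Ldha upstream: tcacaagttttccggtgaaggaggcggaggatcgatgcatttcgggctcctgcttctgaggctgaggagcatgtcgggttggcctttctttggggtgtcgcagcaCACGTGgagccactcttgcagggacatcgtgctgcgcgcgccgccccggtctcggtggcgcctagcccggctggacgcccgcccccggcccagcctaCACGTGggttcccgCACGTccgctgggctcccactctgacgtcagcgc

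The Hk2 stretch held 2 matches and the Ldha stretch 5, with CACGTG at 2 places. Of the 10 genes, 6 had a match in at least 1 of their windows (Hk2, Pfkm, Aldoa, Pgk1, Pkm and Ldha), and 8 of the 20 windows held one, while 16.6% of all 32851 promoter windows of this length did. CACGTG was found for 2 of the 10 genes (Pfkm and Ldha), beside 6.86% of all genes and 6.02% of all windows. The 10 genes had 20 windows, while the 32851 windows belonged to 27025 genes, so the 10 had more windows per gene. Genes with several start sites have several windows that can overlap, and 18.5% of all genes had ACGTG in any window.

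The question put to the 10 genes was whether loss of Prmt5 went with a change of their mRNA. Both Prmt5sKO libraries lay above both controls for Pfkm, Aldoa, Gapdh and Ldha, and below both for Hk2 and Pkm. The groups overlapped for Hk1, Gpi1, Pgk1 and Eno1. The groups thus did not overlap for 6 of the 10 genes, where 48.8% of all genes tested did the same. A higher level without overlap was seen for 4 of the 10 (25.2% of all genes) and a lower one for 2 (23.6%). In limma-voom with Benjamini-Hochberg adjustment over all genes, 0 of the 10 had an adjusted p of at most 0.05 with at least a 2-fold change, and 0% of all genes did. In limma-trend the count was 0 as well. The adjusted p of the 10 ran from 0.320 to 0.971 in limma-voom. That of Prmt5 itself was 0.193, at a log2 fold change of -3.52. A count of 0 therefore does not show that the 10 genes were unchanged. The study, with DESeq2, reported genes up and down at a false discovery rate under 0.05. Without adjustment, Hk2 alone of the 10 had a p under 0.05 in limma-voom, as 13.0% of all genes did. The median log2 fold change of the 10 was -0.03, beside 0.02 for all genes tested. Between the mutant libraries, 8 of the 10 were higher in the shallower one, with a median log2 difference of 0.22 beside -0.02 for all genes. In bulk RNA, fewer cells of a kind and less RNA per cell cannot be told apart.

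**Figure D1:**
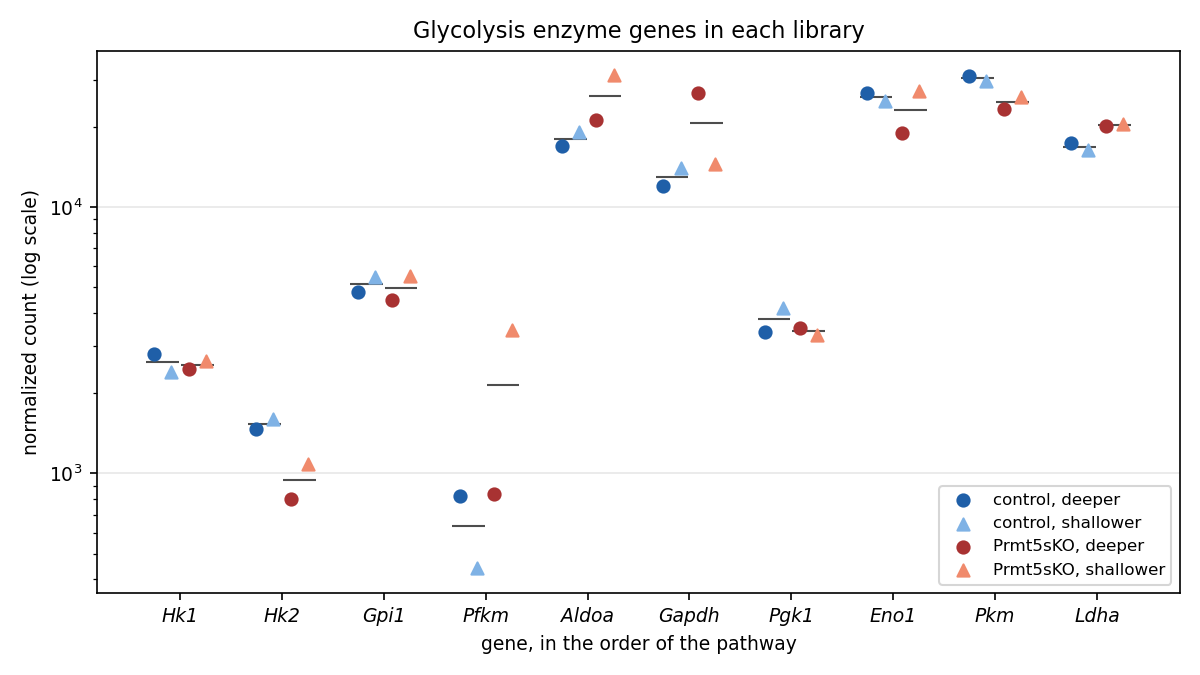
Normalized counts (log axis) of the 10 glycolysis enzyme genes in pathway order. Each symbol is 1 library, circles the deeper and triangles the shallower, blue for control and red for Prmt5sKO, and each line is the mean of a group (n = 2). Pfkm stands out in the shallower Prmt5sKO library at 3449, Gapdh in the deeper one at 26780, and both Hk2 values of Prmt5sKO lie below both controls.

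Hexokinase is present as 2 members, Hk1, the housekeeping form, and Hk2, the form induced by insulin and growth signals. Hk2 (ENSMUSG00000000628, chromosome 6, 82725025 to 82774454, minus strand, GRCm38) had 1474 and 1596 normalized counts in the controls and 804 and 1087 in the Prmt5sKO libraries. Both mutant values were below both controls, and the groups did not overlap. The log2 fold change, Prmt5sKO minus control, was -0.72 (standard error, SE, 0.23, 95% confidence interval -1.29 to -0.15, unadjusted p = 0.021, adjusted p = 0.320 in limma-voom). This is 0.607 of the control level, with 0.409 to 0.901 in the interval, and the adjusted p did not pass. Hk1 (ENSMUSG00000037012, chromosome 10, 62268855 to 62379908, minus strand) had 2812 and 2404 in the controls and 2474 and 2647 in the Prmt5sKO libraries. The groups overlapped, with a log2 fold change of -0.02 (interval -0.52 to 0.47), and its sign turned with scaling by library size alone (0.08). The principal transcript of neither gene shares a run of 40 bases with the annotated transcripts of other genes. Their other exon bases and the rest of the genome were not searched.

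The choice between the 2 hexokinases was also compared within each library, where no scaling between libraries enters. Of the counts per kilobase of exon of Hk1 and Hk2 together, Hk2 took 42.8% and 48.7% in the controls and 31.7% and 37.0% in the Prmt5sKO libraries. The share was lower in both mutant libraries, at 34.4% ± 3.73 (SD, n = 2) against 45.8% ± 4.15 (SD, n = 2). Per kilobase of the principal transcript the means were 20.4% against 29.2%, so the level of the share depended on the length used. With 2 against 2 libraries an exact two-sided permutation test gives p = 0.333 at best, which is what it gave. The Wilson intervals of the single shares, at most 46.9% to 50.5% and 30.3% to 33.2% in the highest and lowest library, cover counting error only.

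Glucose 6-phosphate isomerase, the next step, is encoded by Gpi1 (ENSMUSG00000036427, chromosome 7, 34201330 to 34230336, minus strand). It had 4782 and 5477 normalized counts in the controls and 4464 and 5489 in the Prmt5sKO libraries. These values span the same range, with a log2 fold change of -0.05 (interval -0.58 to 0.49) that turned to 0.06 with scaling by library size alone. Of its exon bases, 11.5% overlap Gm26762 on the other strand.

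Pfkm, the muscle form of phosphofructokinase (ENSMUSG00000033065, chromosome 15, 98092589 to 98132451, plus strand), had the widest spread of the 10 genes. It had 824 and 441 normalized counts in the controls and 837 and 3449 in the Prmt5sKO libraries. The deeper mutant library was next to the deeper control, while the shallower one was 4.12-fold above its own replicate. The log2 fold change was 1.48 (SE 0.71, interval -0.26 to 3.21, adjusted p = 0.425 in limma-voom). Leaving out the shallower Prmt5sKO library gave 0.46 (adjusted p = 0.576), and leaving out the deeper one gave 2.50 (adjusted p = 0.010), a call that then rests on 1 mutant library. With a replicate block joining each deeper library to the shallower one of the other group it was 1.59 (adjusted p = 0.045). The differentiation genes named above were highest in the same library, and their part in the Pfkm value was not tested.

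Phosphofructokinase has 2 more genes, Pfkl, the liver form, and Pfkp, the platelet form. Pfkl had 1303 and 1364 normalized counts in the controls and 814 and 1490 in the Prmt5sKO libraries, and Pfkp had 920 and 1594 against 940 and 894. For both, the groups overlapped. Per kilobase of exon, Pfkm took 48.3% and 29.0% of the 3 genes in the controls and 56.6% and 78.1% in the Prmt5sKO libraries. Both mutant shares were above both controls (38.7% ± 13.7 against 67.3% ± 15.2, SD, n = 2; exact two-sided permutation p = 0.333, the smallest that 2 against 2 allow). Per kilobase of the principal transcript the means were 25.2% in control and 52.8% in Prmt5sKO.

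Aldolase splits fructose 1,6-bisphosphate, and Aldoa is its muscle and housekeeping form. Aldoa (ENSMUSG00000030695, chromosome 7, 126795234 to 126800751, minus strand) had 16901 and 19182 normalized counts in the controls and 21163 and 31162 in the Prmt5sKO libraries. Both mutant values were higher, the shallower one by far, and the log2 fold change was 0.52 (SE 0.26, interval -0.13 to 1.16, adjusted p = 0.447 in limma-voom). Leaving out the shallower Prmt5sKO library gave 0.23, and leaving out the deeper gave 0.79. Aldoa made up at least 99.7% of Aldoa and Aldoc per kilobase in every library. Aldoc, the brain form, had 29.4 and 58.4 normalized counts in the controls and 11.9 and 21.1 in the Prmt5sKO libraries.

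Triose phosphate isomerase (Tpi1), which interconverts the products of that split and has no second gene, had 4257 and 3688 normalized counts in the controls and 3686 and 6009 in the Prmt5sKO libraries. These overlapped, at a log2 fold change of 0.25 (adjusted p = 0.714 in limma-voom), which turned to -0.10 without the shallower Prmt5sKO library.

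Gapdh (ENSMUSG00000057666, chromosome 6, 125161715 to 125166467, minus strand), the dehydrogenase that makes NADH in glycolysis, is also the transcript to which the study scaled its RT-qPCR. It had 12023 and 13983 normalized counts in the controls and 26780 and 14471 in the Prmt5sKO libraries. A single library was high, since the shallower mutant library lay just above the controls at 0.540 of the deeper one. The log2 fold change was 0.59 (SE 0.33, interval -0.21 to 1.39, adjusted p = 0.473 in limma-voom), 0.16 without the deeper and 1.05 without the shallower Prmt5sKO library. With upper-quartile factors, or with library size after removal of ribosomal-type transcripts and Lars2, the Gapdh groups overlapped.

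The sequence shown first matters for this gene. Of the 100-base windows along the Gapdh mRNA, 78.0% occur exactly in the annotated transcripts of other genes, and 73 rows of the table share such a window. The study left reads with several positions uncounted. Those 73 rows summed to 894 and 991 normalized counts in the controls and to 394 and 1028 in the Prmt5sKO libraries. The deeper Prmt5sKO library thus had the highest Gapdh value and the lowest sum of its copies, at 1.47% of the Gapdh level against 7.09% to 7.43% elsewhere. Gapdh with its copies added was 12917, 14974, 27174 and 15499 in the order of the libraries above. The study lists longer reads for 1 Prmt5sKO library than for the others, the columns do not say which, and the part of read length in these values was not tested.

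**Figure D2:**
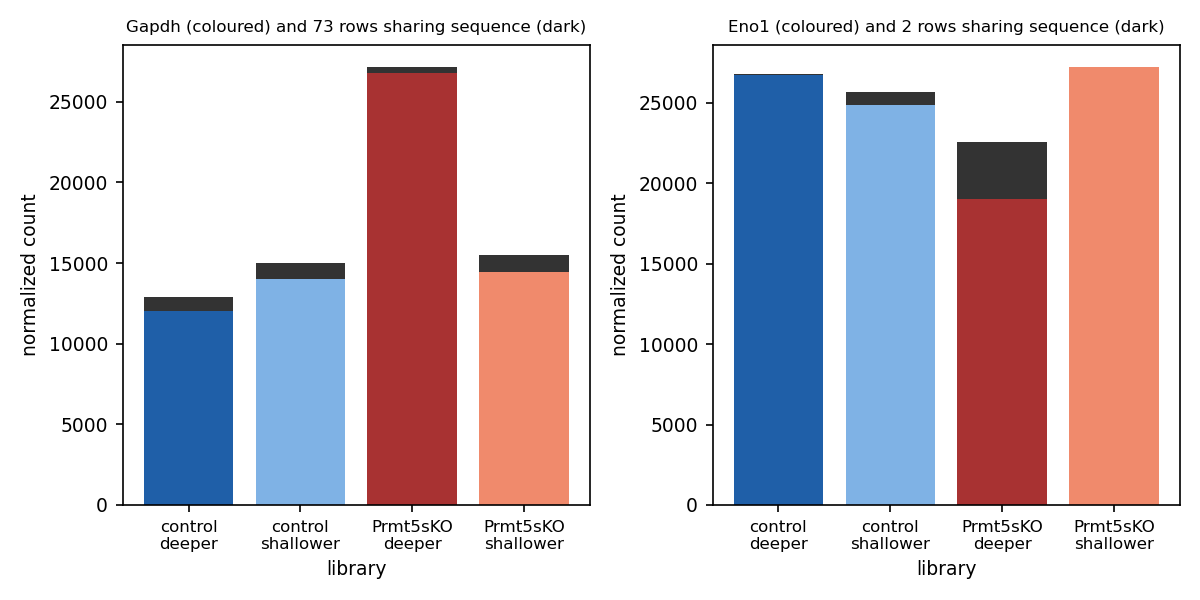
Normalized counts (bars from 0) of Gapdh, left, and Eno1, right, in each of the 4 libraries, with the summed counts of the rows that share a 100-base window with the gene stacked on top in dark. The deeper Prmt5sKO library has the highest Gapdh bar (26780) with the smallest dark part (394), and the lowest Eno1 bar (19011) with the largest dark part (3568).

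Eno1, alpha-enolase, which makes phosphoenolpyruvate (ENSMUSG00000063524, chromosome 4, 150236721 to 150248879, plus strand), showed another pattern of this kind. It had 26748 and 24892 normalized counts in the controls and 19011 and 27196 in the Prmt5sKO libraries. The groups overlapped, with a log2 fold change of -0.18 (interval -0.80 to 0.45), which turned to 0.08 without the deeper Prmt5sKO library. Eno1b, 1 of the 2 rows that share a 100-base window with Eno1, had 7.91 and 763 in the controls and 3540 and 9.05 in the Prmt5sKO libraries. So the library with the least Eno1 had the most Eno1b, and by fold the 2 libraries of each group differed in Eno1b more than the group means did. With both rows added, Eno1 was 26767 and 25694 in the controls and 22579 and 27247 in the Prmt5sKO libraries, with the deeper one still the lowest. Reads of Eno1 and Eno1b could have been split by the counting, so the Eno1 value of that library is uncertain.

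Pgk1, phosphoglycerate kinase, the first step that yields ATP (ENSMUSG00000062070, chromosome X, 106187100 to 106203699, plus strand), had 3389 and 4175 normalized counts in the controls and 3528 and 3310 in the Prmt5sKO libraries. The groups overlapped, and the log2 fold change was -0.14 (interval -0.66 to 0.38), with 0.02 without the shallower control. Of its 100-base windows, 67.0% occur in other annotated genes, but the 2 such rows in the table held at most 7.78 normalized counts together. Pgk2, an intronless copy known from the testis, had 31.6 and 72.6 normalized counts in the controls and 2.22 and 6.03 in the Prmt5sKO libraries, from 28, 56, 3 and 6 reads. These few reads gave a log2 fold change of -3.60 (SE 1.06, unadjusted p = 0.014, adjusted p = 0.295 in limma-voom).

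Pkm, pyruvate kinase, the last step to pyruvate (ENSMUSG00000032294, chromosome 9, 59656368 to 59679375, plus strand), had 31096 and 29815 normalized counts in the controls and 23404 and 25906 in the Prmt5sKO libraries. Both mutant values were below both controls, at 24655 ± 1769 against 30456 ± 906 (SD, n = 2). The log2 fold change was -0.30 (SE 0.21, interval -0.83 to 0.22, adjusted p = 0.557 in limma-voom). The table has 1 row for the gene, so its M1 and M2 splice forms were not told apart. Of its exon bases, 15.3% also belong to Gm49759 on the same strand.

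Ldha encodes lactate dehydrogenase A (ENSMUSG00000063229, chromosome 7, 46841475 to 46855627, plus strand). By fold, its values in the mutant libraries were closer (1.01-fold) than those of any other of the 10 genes. It had 17341 and 16354 normalized counts in the controls and 20197 and 20437 in the Prmt5sKO libraries, 16847 ± 698 against 20317 ± 170 (SD, n = 2). The mutant was higher in both, with a log2 fold change of 0.27 (SE 0.21, interval -0.23 to 0.77, adjusted p = 0.586 in limma-voom). This value stayed between 0.24 and 0.38 under the scalings, tests and left-out libraries that were tried. Ldhb, the heart form, which favours the return of lactate to pyruvate, had 518 and 268 in the controls and 605 and 909 in the Prmt5sKO libraries. Its log2 fold change was 0.96 (SE 0.39, unadjusted p = 0.047, adjusted p = 0.380 in limma-voom). Ldhb made up 5.92% and 3.35% of both genes per kilobase in the controls and 5.94% and 8.57% in the Prmt5sKO libraries, so the groups were only just apart.

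**Figure D3:**
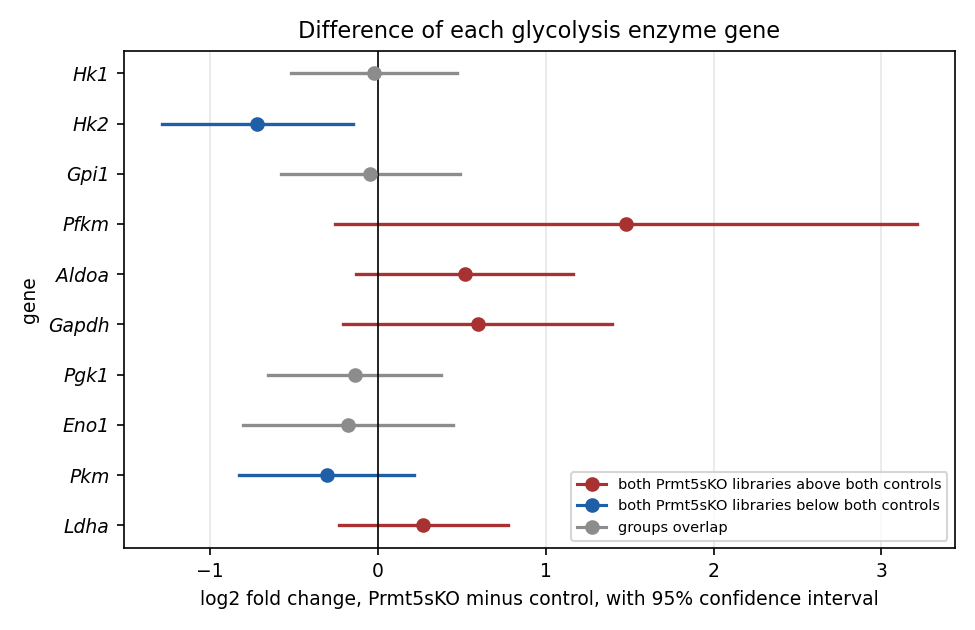
Log2 fold change of each gene, Prmt5sKO minus control, with its 95% confidence interval from limma-voom (2 libraries per group). Red and blue mark genes with both Prmt5sKO libraries above or below both controls and grey those with overlap. The interval of Hk2 (-1.29 to -0.15) alone leaves out 0, and that of Pfkm is the widest.

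In the steps left, 2 genes encode phosphoglycerate mutase, Pgam1, the general form, and Pgam2, the muscle form. Pgam1 had 1614 and 1738 normalized counts in the controls and 1933 and 1684 in the Prmt5sKO libraries, which overlapped. Pgam2 had 139 and 157 in the controls and 169 and 1618 in the Prmt5sKO libraries. Its share of both genes per kilobase was 16.9%, 17.6% and 17.1% in the first 3 of these libraries and 69.4% in the shallower Prmt5sKO library. The log2 fold change of Pgam2 was 1.73 (SE 1.30, adjusted p = 0.583 in limma-voom). A single library was high, and without it the difference of the shares was -0.13 percentage points instead of 26.02. Eno3, the muscle enolase, had 10552 and 9542 in the controls and 9267 and 14434 in the Prmt5sKO libraries. Its share of the enolase genes per kilobase was 54.9% and 54.1% in the controls and 60.02% and 62.0% in the Prmt5sKO libraries (54.5% ± 0.526 against 61.0% ± 1.40, SD, n = 2; exact two-sided permutation p = 0.333, the smallest possible). Per kilobase of the principal transcript the means were 33.5% and 39.7%, so the level of the share depended on the length used. In the deeper Prmt5sKO library Eno1 was low and Eno1b high, and the part of that in the share was not tested. Eno2, the neuronal form, had between 63.3 and 142 normalized counts, and Gapdhs, the sperm form of Gapdh, between 24.6 and 39.2. Hk3, Hkdc1 and Ldhc had too few reads to be tested. Of the 13 tested genes for other isozymes and remaining steps, 2 were higher (Pgam2 and Ldhb) and 2 lower (Aldoc and Pgk2) without overlap (25.2% and 23.6% of all genes), at a median log2 fold change of 0.11.

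**Figure D4:**
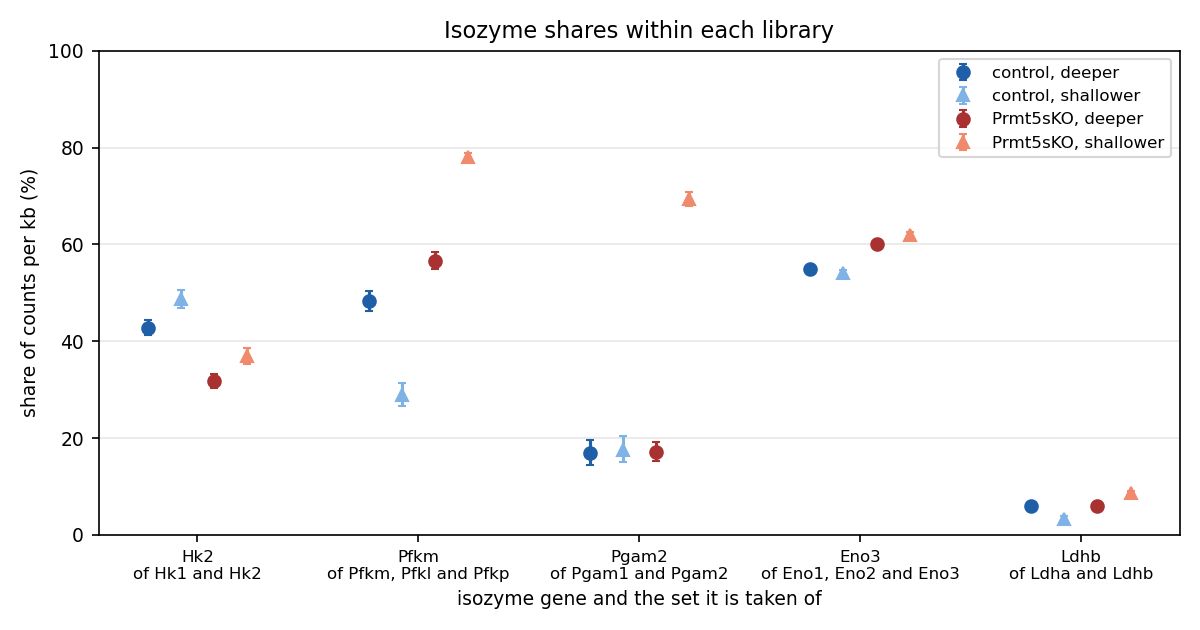
Share of counts per kilobase of exon (%) that 1 isozyme gene takes of its set, in each of the 4 libraries, with Wilson 95% intervals for counting error. Hk2 lies at 42.8% and 48.7% in control and at 31.7% and 37.0% in Prmt5sKO, while the muscle forms Pfkm (78.1%) and Pgam2 (69.4%) peak in the shallower Prmt5sKO library.

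Levels of different genes were compared only per kilobase, within each group, since several differ between the groups. By exon length of the whole gene, Aldoa had 6198 ± 554 normalized counts per kilobase in control and 8987 ± 2429 in Prmt5sKO (SD, n = 2). In control Pkm (6090), Ldha (5090) and Eno1 (4800) came next, and in the deeper control library Pkm (6218) lay above Aldoa (5806). In Prmt5sKO the order of the means after Aldoa was Ldha (6138), Gapdh (4990 ± 2106), Pkm (4930) and Eno1 (4295). Neither Prmt5sKO library had this order. Gapdh was above Ldha in the deeper one (6479 against 6102) and below Eno1 in the shallower one (3501 against 5056). Gapdh followed Eno1 in control, at 3146. Pgk1 had 1685 in control and 1524 in Prmt5sKO, and its range over the 4 libraries (1475 to 1860) lay apart from those of the 5 genes above and of Gpi1 below (692 to 851). Hk1 had 306 and 300, above Hk2 in every library (257 in control and 158 in Prmt5sKO). Pfkm was the lowest of the 10 in control, at 189 ± 81.1, and had 642 ± 553 in Prmt5sKO, where the shallower library (1032) lay above Gpi1. Per kilobase of the principal transcript alone, Eno1 (12738) and Pkm (12523) came before Aldoa (11940) in control, while Aldoa (17314) was first in Prmt5sKO. Pfkm (220) was again the lowest in control and Hk2 (172) in Prmt5sKO. By this length the ranges of Pgk1 (1814 to 2287) and Gpi1 (1548 to 1903) overlapped. Of the 100-base windows of Gapdh, Pgk1 and Eno1, 78.0%, 67.0% and 59.0% occur in other annotated genes. At 40 bases, 42.2% of the windows of Pkm, 30.8% of Gpi1, 25.9% of Ldha and 22.6% of Aldoa do so. Of the exon bases of Pfkm, 10.7% overlap Gm26513 on the same strand or Senp1 on the other. Reads with several positions or in several genes were left uncounted. The levels of these genes could therefore be too low, which was not tested.

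Together the 10 genes took 0.720% and 0.689% of all counts in the controls and 0.826% and 0.830% in the Prmt5sKO libraries (0.704% ± 0.0216 against 0.828% ± 0.00299, SD, n = 2). Counts of ribosomal-type transcripts and Lars2, which dilute all other genes, were 6.56% and 14.9% in the controls and 1.97% and 2.66% in the Prmt5sKO libraries, and their part in the share was not tested. In normalized counts the sum was 117390 and 118319 in the controls and 122662 and 135152 in the Prmt5sKO libraries. Most of this sum comes from Aldoa, Gapdh, Eno1, Pkm and Ldha.

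Because Gapdh is a common reference for RT-qPCR, each gene was also set against Gapdh within its library. The log2 difference of Prmt5 was -4.14 relative to Gapdh and -3.52 in limma-voom. For Hk2 it was -1.32 against -0.72, and for Pkm -0.91 against -0.30. Ldha and Aldoa, above control in normalized counts, came out at -0.33 and -0.09 relative to Gapdh, so their sign depended on this reference. Their groups overlapped by this measure. Ldha lay at 0.53 and 0.23 in the controls and at -0.41 and 0.50 in the Prmt5sKO libraries. Aldoa lay at 0.49 and 0.46 against -0.34 and 1.11. Only the deeper Prmt5sKO library, with the highest Gapdh, was below both controls for these genes. For Pfkm the log2 difference relative to Gapdh was 0.89, also with overlap. Its deeper Prmt5sKO library (-5.00) lay below both controls (-3.87 and -4.99) and the shallower one (-2.07) above them.

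The other genes of the pathway were taken from lists of 62 genes, of which 57 were analysed here and 53 were tested. Of these 53, 16 were higher and 12 lower without overlap (25.2% and 23.6% of all genes), and 0 passed the adjusted test, as 0% of all genes did. With scaling by library size alone the split was 21 higher and 10 lower, and the median of all genes then stood at 0.13 instead of 0.02. Their median log2 fold change was 0.11. Before adjustment, 8 higher and 6 lower genes had a p under 0.05, where 6.01% and 6.95% of all genes had this. All adjusted p-values of these genes were at least 0.232.

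**Figure D5:**
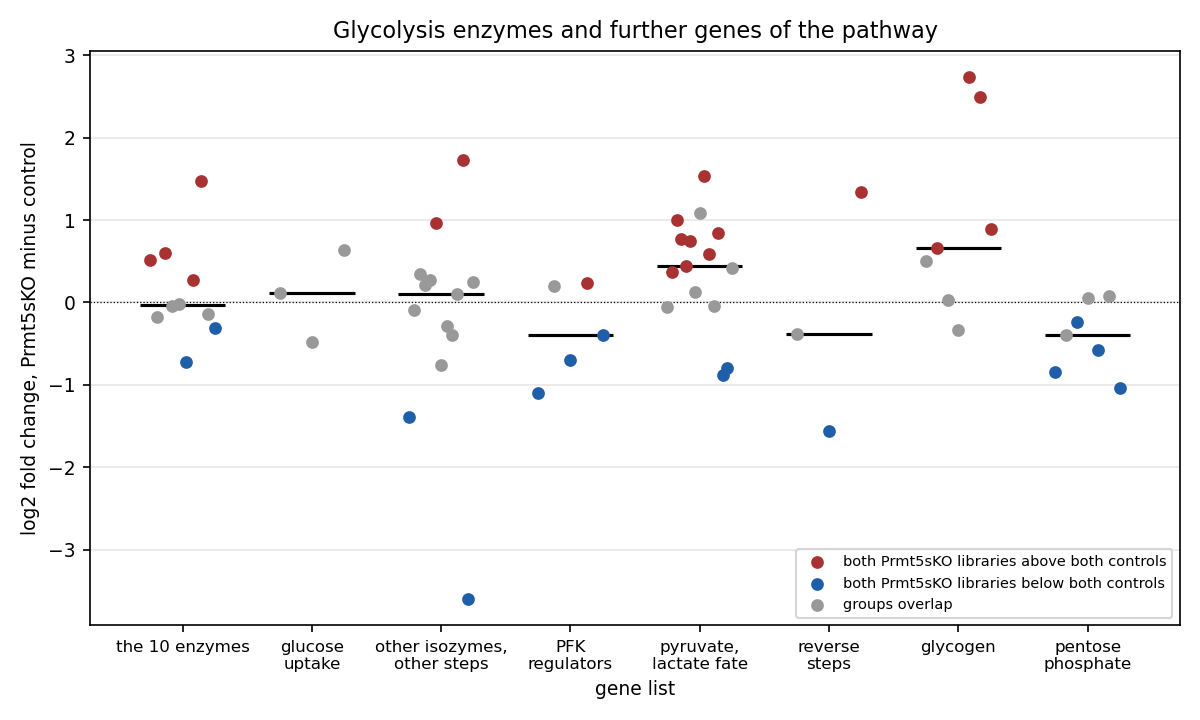
Log2 fold change, Prmt5sKO minus control, of the 10 enzymes and of 7 lists of further genes. Each point is 1 gene, red or blue where both Prmt5sKO libraries lie above or below both controls, grey where the groups overlap, and each line is the median of a list. Of the 53 further genes, 16 are red and 12 are blue, beside 25.2% and 23.6% of all genes tested.

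Glucose enters through the transporters Slc2a1 (GLUT1), Slc2a3 (GLUT3) and Slc2a4 (GLUT4, the insulin-regulated form of muscle and fat). The groups overlapped for 3 of 3. Slc2a1 was the most read, with 504 and 628 normalized counts in the controls and 571 and 649 in the Prmt5sKO libraries. Slc2a4 had 17.0 and 14.3 in the controls and 7.41 and 106 in the Prmt5sKO libraries, so the library with the highest differentiation genes was also the highest here.

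Phosphofructokinase is driven by fructose 2,6-bisphosphate, which the Pfkfb enzymes make and degrade and Tigar degrades. Of the 5 genes, 3 were lower without overlap (Pfkfb1, Pfkfb3 and Tigar) and 1 was higher (Pfkfb4), where 23.6% and 25.2% of all genes did so, and 0 had an unadjusted p under 0.05. Pfkfb1 had 84.8 and 97.3 normalized counts in the controls and 45.2 and 38.2 in the Prmt5sKO libraries, a log2 fold change of -1.10 (SE 0.46, adjusted p = 0.389 in limma-voom).

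Pyruvate leaves the cytosol or becomes lactate. For the 15 genes of this list the median was 0.44 on the log2 scale, with 8 higher and 2 lower without overlap, beside 0.02, 25.2% and 23.6% for all genes. Slc16a1, which encodes the lactate and pyruvate transporter MCT1, had 4085 and 4255 normalized counts in the controls and 2063 and 2807 in the Prmt5sKO libraries. Both mutant values were below both controls, with a log2 fold change of -0.79 (SE 0.23, interval -1.35 to -0.23, unadjusted p = 0.014, adjusted p = 0.295 in limma-voom). Slc16a3, which encodes the lactate exporter MCT4, had 186 and 139 in the controls and 133 and 398 in the Prmt5sKO libraries, which overlapped.

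Several genes of the entry of pyruvate into mitochondria were higher without overlap. Pdhb, the beta subunit of the E1 component of pyruvate dehydrogenase, had 1288 and 1408 normalized counts in the controls and 2216 and 2306 in the Prmt5sKO libraries (log2 fold change 0.75, SE 0.20, unadjusted p = 0.0088, adjusted p = 0.276 in limma-voom). Pdha1, its alpha subunit, had 2195 and 2247 against 2784 and 3257, and Dld, the E3 component, 1673 and 1778 against 2164 and 2274. Mpc2, a subunit of the mitochondrial pyruvate carrier, had 184 and 180 against 304 and 324 (log2 fold change 0.78, unadjusted p = 0.035). Dlat and Pdhx, the other components, overlapped.

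The kinases and phosphatases that switch this complex off and on did not share a direction. Pdk2, a kinase that inhibits it, had 105 and 70.0 normalized counts in the controls and 219 and 297 in the Prmt5sKO libraries (log2 fold change 1.53, SE 0.41, unadjusted p = 0.0098, adjusted p = 0.276 in limma-voom). Pdk1, another such kinase and a known hypoxia target, had 132 and 93.4 in the controls and 117 and 561 in the Prmt5sKO libraries, which overlapped. Pdk3, a further kinase, had 622 and 367 against 640 and 834 and was higher without overlap (log2 fold change 0.59). Pdp2, a phosphatase that activates it, had 233 and 184 against 111 and 116 (log2 fold change -0.88, unadjusted p = 0.041), while Pdp1, the other phosphatase, was higher without overlap. Pdk4, the most read of the kinases, overlapped.

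Of the reverse steps, which rebuild glucose, 3 of 6 genes were analysed here. Pcx, pyruvate carboxylase, had 207 and 281 normalized counts in the controls and 530 and 711 in the Prmt5sKO libraries (log2 fold change 1.35, SE 0.31, interval 0.58 to 2.11, unadjusted p = 0.0050, adjusted p = 0.252 in limma-voom). Pck2, the mitochondrial phosphoenolpyruvate carboxykinase and a target of the amino acid response, had 1014 and 1652 against 384 and 506 (log2 fold change -1.56, SE 0.32, unadjusted p = 0.0026, adjusted p = 0.232). These adjacent enzymes thus lay on opposite sides of control, with groups apart in both.

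The glycogen list had 4 of 7 genes higher and 0 lower without overlap (25.2% and 23.6% of all genes), at a median log2 fold change of 0.66. Pygm, the muscle glycogen phosphorylase, had 401 and 131 normalized counts in the controls and 677 and 2629 in the Prmt5sKO libraries (log2 fold change 2.49, SE 0.87, unadjusted p = 0.028, adjusted p = 0.334 in limma-voom). As for Pfkm, the shallower Prmt5sKO library was the highest, here 3.88-fold above the deeper one. Ugp2, which makes UDP-glucose, had 454 and 427 against 656 and 1030 (log2 fold change 0.89, unadjusted p = 0.026). Pygl, the liver phosphorylase, had 9.04 and 1.30 against 26.7 and 33.2 (log2 fold change 2.74, SE 1.07, unadjusted p = 0.042, adjusted p = 0.366 in limma-voom), and Pygb, the brain form, overlapped.

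The pentose phosphate branch, which draws on glucose 6-phosphate for NADPH and ribose, had 4 of 7 genes lower and 0 higher without overlap (23.6% and 25.2% of all genes), at a median of -0.40. G6pdx, its first enzyme, had 2213 and 2404 normalized counts in the controls and 1280 and 1277 in the Prmt5sKO libraries (log2 fold change -0.85, SE 0.19, interval -1.33 to -0.38, unadjusted p = 0.0046, adjusted p = 0.249 in limma-voom). Tkt, transketolase, had 1214 and 1611 against 833 and 545 (log2 fold change -1.04, SE 0.29, unadjusted p = 0.011, adjusted p = 0.280). Pgls and Rpia were also lower, while Pgd, Taldo1 and Rpe overlapped. The proliferation genes were lower in the same libraries, and their part in these values was not tested.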

How the data were processed

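Ribosomal-RNA-depleted RNA of 4 libraries of cultured MuSC was sequenced (control, n = 2; Prmt5sKO, n = 2). Reads were trimmed by the authors (Reaper), mapped to GRCm38 with STAR 2.4.0a, and the authors compared groups with DESeq2, for which the submitters' processing notes give version 1.62. Reads with several positions or in several genes were left uncounted. The deposited signal values are the authors' group means of size-factor-normalized counts. The 4 other columns hold the authors' fold changes, their errors and p-values and were not used. No columns of single libraries remained unused (0).

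Each group mean adds whole multiples of 1 step per library, and solving for these gave whole reads per library for 100% of 20065 genes. The largest relative residual was 5.2e-15. On simulated means with known counts the recovery was tested as well. Within a group, libraries differed by far more than counting noise (chi-square per gene 79.6 in control and 140 in Prmt5sKO). Counts were fitted with limma-voom in limma 3.58.1 under R 4.3.3, after scaling by TMM, which was written for this purpose and trimmed 30% of M-values and 5% of A-values. A gene was tested if its normalized count averaged 5 or more. It was called if it changed 2-fold or more with an adjusted p of 0.05 or less. The fit was tested on simulated counts. Symbols and positions came from GENCODE M21 (19782 of 20065 identifiers), and promoters from RefSeq (GRCm38.p6), which matched 10 of 10 genes. Shares carry Wilson intervals and an exact permutation test over libraries.

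The members and lists were chosen with earlier results of these data known. Genes are named if they are members, their isozymes, enzymes of the remaining steps or listed transporters. In the other lists, those with an unadjusted p under 0.05 or a 2-fold change are named, and further genes were named after their values were seen. The result of a listed gene is not reported here. As no column names a replicate, each of the 2 ways to pair the libraries was fitted as an alternative. Other alternatives were upper-quartile factors, library size with and without ribosomal-type transcripts, the authors' size factors, no filter, limma-trend and leaving out each library. The deviations of the libraries of a group correlated between groups at -0.30 with the deeper libraries paired, over 11487 genes. The value for the crossed pairing (0.30) is the same with its sign reversed by construction, so it is not a second result.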

Additional observations from a re-analysis of the deposited data

How the results depend on the processing

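With 2 libraries per group, depth limits rare transcripts and the spread between libraries limits all others. The number of the 10 genes that passed the adjusted test was 0 under each scaling, filter and test tried, 0 to 1 when a library was left out, and 1 (Pfkm) with the replicate block that joins each deeper library to the shallower one of the other group. Without the deeper Prmt5sKO library it was also 1 (Pfkm). The block with the deeper libraries paired gave 0. In all, 346 of the 16212 genes passed under the crossed block, Pck2 and Pygm among them, against 0 without a block. Since neither columns nor labels tell which pairing holds, these calls show nothing about the size of the effect, and the cause was not tested. Leaving out a library leaves 1 library in a group, which is then assumed to vary like the others.

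The median log2 fold change of the 10 genes was -0.03. It was 0.071 with library size only, where the median of all genes was 0.13, and it ran from -0.082 to 0.089 over left-out libraries. The number of the 10 without overlap ran from 7 to 9 and that of the further genes from 36 to 47 with a library left out, against 6 and 28, while 69.3% to 78.0% of all genes then did not overlap, against 48.8%, since 3 libraries overlap less often. The difference of the Aldoa share was 0.158 percentage points, and 0.0959 per kilobase of the principal transcript, a setting chosen after seeing the data. Over left-out libraries the share differences ran from -14.3 to -8.48 for Hk2, 17.95 to 39.4 for Pfkm, 0.0997 to 0.215 for Aldoa, -0.13 to 52.2 for Pgam2, 5.50 to 7.48 for Eno3 and 1.30 to 3.94 for Ldhb.

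Signs turned for 13 genes, none of them called. Over left-out libraries the log2 fold changes ran from -0.13 to 0.077 for Hk1, -0.20 to 0.10 for Gpi1, -0.30 to 0.018 for Pgk1, -0.44 to 0.076 for Eno1, -0.71 to 0.16 for Pfkl and -0.81 to 0.0038 for Pfkp. They ran from -0.12 to 0.92 for Eno2, -0.11 to 0.52 for Eno3, -0.10 to 0.60 for Tpi1, -0.061 to 0.28 for Slc2a1, -1.26 to 0.15 for Slc2a3, -1.06 to 2.71 for Slc2a4 and -0.29 to 1.29 for Slc16a3. With library size only they were 0.083 for Hk1 and 0.058 for Gpi1. The cause was not tested.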

Other observations

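Genes of the hypoxia response, which commonly move with glycolytic enzymes in low oxygen, were taken from a list of 18, all tested. Their median log2 fold change was 0.22, with 5 higher and 1 lower without overlap (25.2% and 23.6% of all genes) and 0 past the adjusted test. Hif1a, the oxygen-regulated factor itself, had 1405 and 1915 normalized counts in the controls and 1387 and 1769 in the Prmt5sKO libraries, which overlapped. P4ha1, a collagen prolyl hydroxylase subunit, had 896 and 689 against 1196 and 2086 (log2 fold change 1.00, SE 0.33, unadjusted p = 0.023, adjusted p = 0.325 in limma-voom). Ddit4, an inhibitor of mTORC1 signalling, had 427 and 208 against 565 and 702 (log2 fold change 1.05, unadjusted p = 0.031, adjusted p = 0.343). Bnip3, a mitophagy receptor, had 97.2 and 183 against 233 and 459 (log2 fold change 1.27, unadjusted p = 0.051, adjusted p = 0.386). Epas1, which encodes HIF-2alpha, had 23.7 and 9.08 against 19.3 and 59.3 (log2 fold change 1.04, SE 0.94, adjusted p = 0.646). Vegfa, Egln3 and Car9, which are often used as hypoxia markers, overlapped.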
